A study of Mus musculus with 3 samples.

Results

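The genes described here code for the proteasome and for the proteins that activate, inhibit or assemble it. They were found as all array probes, control spots left out, whose RefSeq mRNA accession belongs to a gene with a symbol from Psma to Psmg followed by a number. This gave 76 probes for 50 genes, of 56591 probes and 23458 named genes on the array. By known role, 8 of the genes code for the alpha ring of the core, 7 for its constitutive beta ring, 4 for inducible or tissue-restricted beta subunits, 9 for the base, 8 for the lid, 5 for activators and an inhibitor, and 7 for assembly chaperones. The other 2, Psmc3ip and Psme3ip1, meet the symbol rule but are not proteasome subunits: Psmc3ip is a partner in meiotic recombination that was named for binding a base subunit, and Psme3ip1 binds the activator Psme3.

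Gene expression was measured in mouse blastocysts of the ICR strain on 3 arrays, each holding RNA from 1 pool of 30 blastocysts. The mothers of the young blastocysts were 3 to 6 weeks old, and those of the aging blastocysts were 43 to 53 weeks old. The suppressed aging blastocysts had mothers of the same older age, and their zygotes were cultured with 10 μg/ml of a neutralizing antibody against CXCL5, a chemokine, together with 10 nM of a selective antagonist of its receptor CXCR2. By the labels, all females were super-ovulated and mated, and the zygotes were flushed from the oviducts. Zygotes of all groups were cultured in KSOM, an embryo culture medium, and blastocysts were collected after 96 h. The antibody and the antagonist were given together, so their parts cannot be told apart. The arrays read 1 dye, Cy3, and all 3 were on 1 slide and in 1 scan. With 1 array per condition the values have no error between embryos or pools, no test was possible, and no P-value was computed. In pooled embryos, fewer cells of a type and less RNA per cell cannot be told apart.

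The proteasome is the barrel-shaped protease that degrades proteins tagged with ubiquitin. Its core is built of alpha rings, which control entry, and beta rings, which hold the cutting sites. The core is capped by a regulatory particle: the base unfolds the substrate with a ring of ATPases, and the lid removes the ubiquitin chain. Some beta subunits have counterparts that are induced by interferon and make up the immunoproteasome, which shapes peptides for antigen presentation. In the early embryo the proteasome takes part in clearing maternal proteins.

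Levels are given as log2 of the scanner intensity minus the 75th percentile of the array, so that 0 is the level of that percentile and 1 unit is a factor of 2. Levels of different probes were not set against each other, since each probe has its own brightness. Of the 76 probes, 73 were above background on all 3 arrays. Each gene is described by its probe with the highest mean level, and all probes of the 21 genes that have 2 or more are compared further on. All 10 blastocyst markers looked at, such as Cdx2, Krt8, Pou5f1 and Nanog, were above background on all 3 arrays, and in aging against young Sox2 and Tfap2c were more than 2-fold apart (log2 differences of 1.37 and -1.16, the other probe of Tfap2c giving 0.08). Of 8 markers of cumulus and granulosa cells, which surround the oocyte, 3 were above background on each array (Ptgs2, Cyp19a1 and Amh), while Has2 and the others were not. The log2 of their summed level on the young, aging and suppressed aging arrays was -0.01, -0.05 and 0.10. Of 5 blood and immune cell markers with a probe, Ptprc, the general leukocyte marker, was not above background on any array, and 4 were. The log2 of the summed level of these 5 was 7.92, 7.73 and 7.83 and came nearly all from 1 probe of Itgam whose partner probe was not above background. Cd74, with 1 probe, and both probes of Hba-a1 were lower on the suppressed aging than on the aging array, by log2 differences of -0.79, -1.69 and -0.82. The probes of Cd3e disagreed: one had -1.19, -0.94 and -2.04 on the young, aging and suppressed aging arrays, and the other -3.20, -3.64 and -0.73, which gave -1.11 and 2.91 in suppressed aging against aging. The part of these cells in the results below was not tested.

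**Figure D1:**
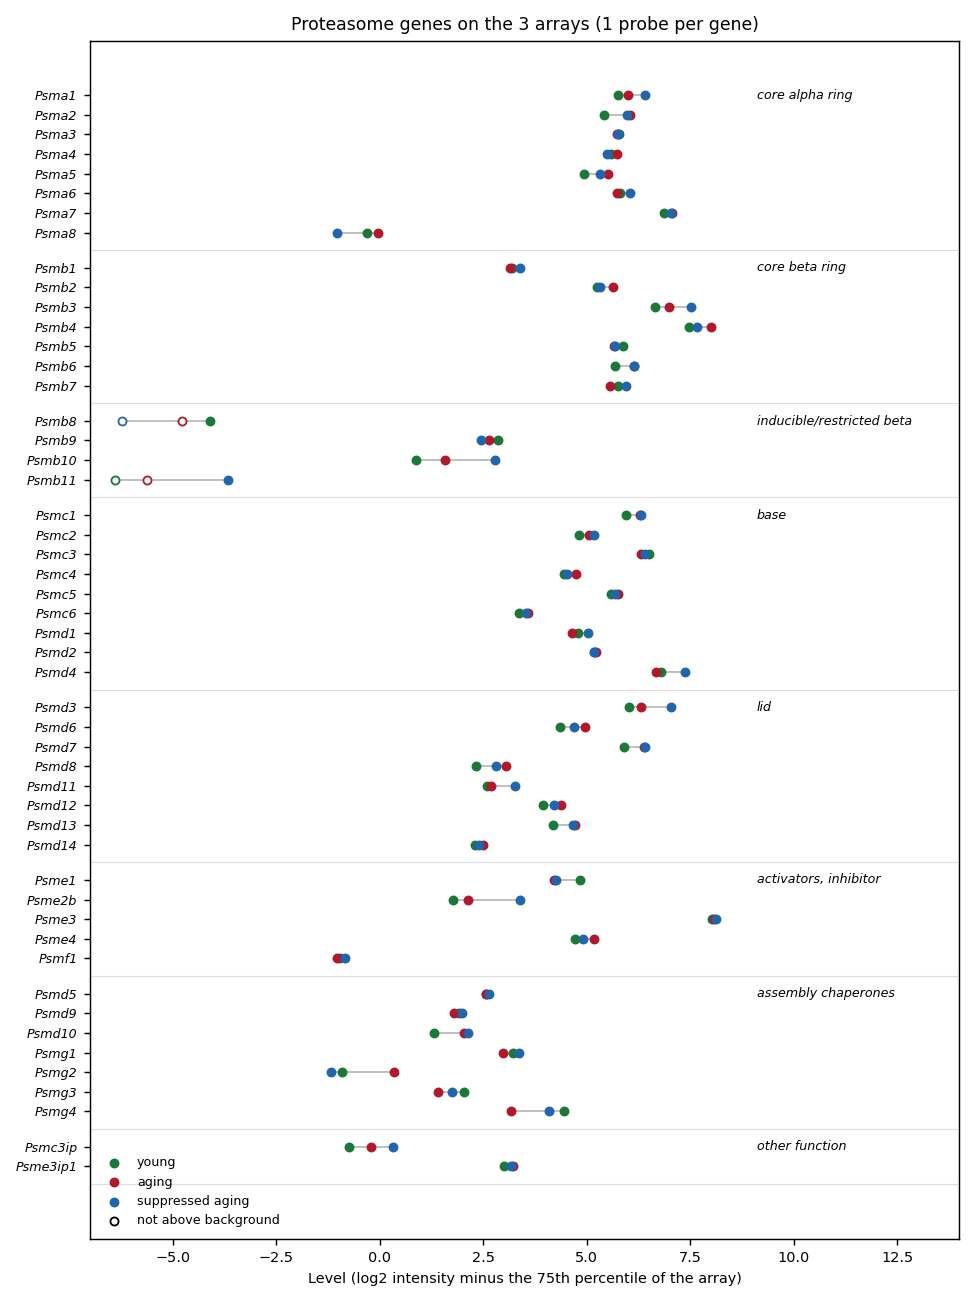
Levels of the 50 genes on the young, aging and suppressed aging arrays, as log2 intensity minus the 75th percentile of the array, with 1 probe per gene and 1 array per condition. Open circles are values not above background. Each line joins the 3 values of a gene, and only values on the same line can be compared. Most lines are short, and the longest among genes above background on all 3 arrays belong to Psmb10, Psme2b, Psmg2 and Psmg4.

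In aging against young blastocysts, 32 of the 49 genes with a value for this comparison were higher (65.3%), and the median log2 difference was 0.21. Over all genes measured, 51.9% were higher and the median was 0.03. Proteasome genes are brightly measured, so the same was counted for the 2604 other genes with a mean level between 2.60 and 5.79 that were above background on all 3 arrays. This range was set from the mean levels of all 50 proteasome genes. Of the 2604 genes, 54% were higher, with a median of 0.04. After suppression, 28 of 49 genes were higher than in untreated aging blastocysts (57.1%, against 49.7% of all genes and 51% of genes of like signal), and the median was 0.03 against -0.00 for all genes and 0.01 for genes of like signal. Set against young, the suppressed aging array was higher in 39 of 49 genes (79.6%, against 52.4% of all genes and 58.3% of genes of like signal), and the median was 0.19 against 0.03 and 0.07. The comparisons share arrays: the young array enters the first and the last, and the aging array the first and the middle one. A high or a low young array therefore shows in both comparisons with young, and the counts are not separate pieces of evidence.

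The share of proteasome genes more than 2-fold apart was below that of all genes and near that of genes of like signal. In aging against young 2 of 49 genes passed this fold, Psmg2 and Psmg4, against 19% of all genes and 5.8% of genes of like signal. Between suppressed aging and aging 3 of 49 passed it, Psmb10, Psme2b and Psmg2, against 17.3% of all genes and 4.34% of genes of like signal. Between suppressed aging and young 4 of 49 passed it, Psmb10, Psme2b, Psmc3ip and Psmd3, all of them higher, against 16.3% and 6.11%. Of the genes named here, only Psmg4 had a mean level within the range that defines genes of like signal. Psmd3 lay above that range and the others below it, so the share of genes of like signal is not matched to them. No proteasome gene was more than 5-fold apart in any comparison. That fold was passed by 2.59%, 2.29% and 2.43% of all genes in these comparisons. Among the 2604 genes of like signal it was passed by only 16, 8 and 20.

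The 31 constitutive subunits of the core, base and lid, without the testis-type alpha subunit Psma8, were above background on all 3 arrays. In aging against young 23 of them were higher, and the median was 0.24 on the log2 scale. The suppressed aging array was above the young one in 27, also with a median of 0.24. Between suppressed aging and aging the median was -0.01, and 15 were higher while 16 were lower. For 22 of the 31 subunits (71.0%) the young array held the lowest of the 3 levels, which was so for 36.7% of all genes and 40.8% of genes of like signal. Several of the 31, such as Psma7, Psmb4 and Psmd7, lay above the range of genes of like signal, and Psmd14 lay below it. The share of genes of like signal is therefore not matched to these subunits. The highest level was on the aging array for 16 of them, on the suppressed aging array for 12 and on the young array for 3.

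**Figure D2:**
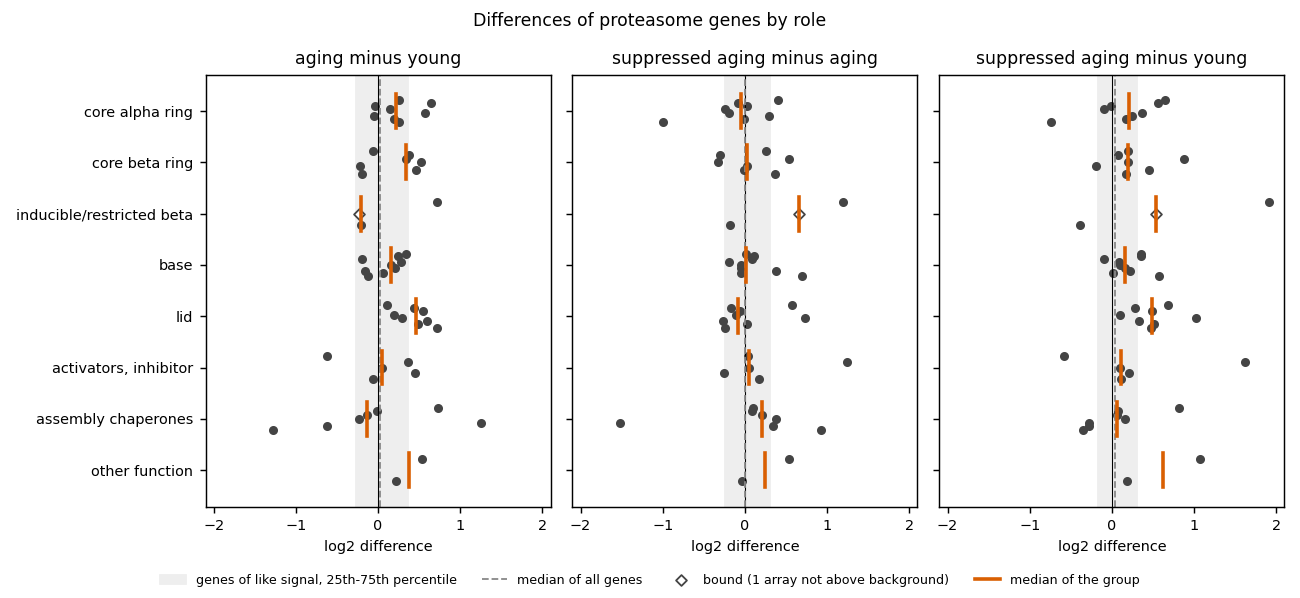
Log2 differences of the proteasome genes in the 3 comparisons, by role. Each point is 1 gene, diamonds are bounds where 1 array was not above background, and orange bars are group medians. The grey band spans the 25th to the 75th percentile of genes of like signal and the dashed line is the median of all genes. All 8 lid genes lie to the right of 0 in both comparisons with young.

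The lid showed the same direction in all of its genes. All 8 lid subunits were higher on the aging than on the young array, with differences between 0.11 and 0.72 and a median of 0.46, and all 8 were higher on the suppressed aging than on the young array, between 0.09 and 1.02 with a median of 0.48. Against aging, 3 of the 8 were higher in suppressed aging and the median was -0.08. Over all genes, 51.9% were higher in aging against young, 49.7% in suppressed aging against aging and 52.4% in suppressed aging against young. The counts for the other roles below stand beside the same shares. Psmd8 had levels of 2.32, 3.04 and 2.80 on the young, aging and suppressed aging arrays, the order used throughout. Psmd7, the partner of the deubiquitinase Psmd14, had 5.89, 6.38 and 6.41. Psmd12, a scaffold subunit, had 3.93, 4.38 and 4.21. In each of these genes both arrays of older females stood above the young one and near each other. Psmd11, a subunit tied to proteasome assembly in stem cells, had 2.58, 2.69 and 3.26, so that its suppressed aging level stood apart from the other two. Psmd3, a large scaffold subunit of the lid, did the same with 6.01, 6.31 and 7.03, and its suppressed aging level was 2.03-fold that of young. Its other probe had 2.20, 2.62 and 2.34, a log2 difference of 0.13 in suppressed aging against young, so the 2-fold difference rests on 1 probe.

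Probes of the same lid gene did not always show the same direction. Psmd13 had 4.18, 4.72 and 4.67 on its brighter probe and 2.08, 2.31 and 2.07 on the other. Both probes were higher in aging than in young, and on the dimmer one the suppressed aging level was within 0.01 of the young level. Psmd6 had 4.35, 4.95 and 4.68 on its brightest probe, 3.61, 3.74 and 3.79 on another and 3.38, 2.79 and 3.42 on the remaining one. The first 2 were higher in aging than in young and the last was lower by 0.59. Psmd14, which cuts the ubiquitin chain from the substrate, had 2.29, 2.49 and 2.39 on one probe and 1.44, 1.38 and 1.87 on the other, with log2 differences of 0.20 and -0.06 in aging against young. When the probes of a gene were averaged, all 8 lid genes were still higher in both comparisons with young, with medians of 0.37 and 0.38. The averages of Psmd6 and Psmd14 in aging against young were only 0.05 and 0.07, far below the spread of 0.50 between probes given below. In suppressed aging against aging, averaging turned the lid from 3 of 8 genes higher (median -0.08) to 5 of 8 (median 0.08).

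In the base, 6 of 9 genes were higher in aging than in young (median 0.15), 5 of 9 in suppressed aging than in aging (median 0.02) and 8 of 9 in suppressed aging than in young (median 0.16). When probes were averaged, the count in aging against young became 4 of 9 and the median -0.12. The base holds the ATPases Psmc1 to Psmc6 and the non-ATPase subunits Psmd1, Psmd2 and Psmd4. Psmc1, Psmc2, Psmc5 and Psmc6, each with 1 probe, had differences between 0.15 and 0.34 in aging against young and between 0.10 and 0.36 in suppressed aging against young. Psmc4 had levels of 4.44, 4.73 and 4.53 on its brighter probe and 2.19, 0.06 and 0.47 on the other. The brighter probe differed by 0.28 in aging against young and the dimmer one by -2.13, the widest disagreement between probes of any proteasome gene. Psmc3 had 6.50, 6.31 and 6.40 on its brightest probe, 4.09, 4.21 and 4.24 on another and 3.66, 3.09 and 3.71 on the remaining one. Its 3 levels lay close together on the first 2 probes.

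Psmd4, the ubiquitin receptor of the base, was highest on the suppressed aging array. Its levels were 6.79, 6.67 and 7.36 on one probe and 3.65, 3.46 and 4.21 on the other. The probes gave log2 differences of 0.69 and 0.74 in suppressed aging against aging, and 0.57 and 0.56 in suppressed aging against young. The scaffold Psmd1 had 4.79, 4.64 and 5.02 on its brightest probe, 3.73, 3.85 and 3.63 on another and 3.50, 2.48 and 3.44 on the remaining one. The last probe had an aging level 1.01 below young. The brightest probe was also lowest in aging, with log2 differences of -0.16 in aging against young and 0.38 in suppressed aging against aging. The probe with 3.73, 3.85 and 3.63 was highest in aging. The scaffold Psmd2 had 5.16, 5.22 and 5.17 on one probe and 2.96, 2.66 and 3.48 on the other, and only the dimmer probe was clearly higher in suppressed aging than in aging (0.82).

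Among the alpha subunits, which form the gate of the core, 6 of 8 were higher in aging than in young (median 0.22), 3 of 8 in suppressed aging than in aging (median -0.05) and 5 of 8 in suppressed aging than in young (median 0.21). Psma2 had levels of 5.41, 6.05 and 5.96, and Psma5 had 4.94, 5.51 and 5.31, so that both arrays of older females were above the young one. Psma1 had 5.74, 5.99 and 6.39 and was highest in suppressed aging. Psma7 had 6.86, 7.05 and 7.04. Psma3 showed nearly equal levels of 5.77, 5.73 and 5.76 on its brighter probe. Its other probe had 4.98, 4.82 and 4.64, a log2 difference of -0.34 in suppressed aging against young. Psma6 had 5.79, 5.74 and 6.03 on one probe and 5.66, 6.02 and 5.83 on the other, which put different arrays highest. Psma4 was measured by 4 probes. They had 5.58, 5.72 and 5.48, then 3.24, 3.78 and 3.47, then 2.85, 2.84 and 3.18, and then 2.30, 2.71 and 3.14, so that aging was highest on 2 of them and suppressed aging on the other 2.

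Psma8, the alpha subunit of the testis, replaces Psma7 in germ cells. Its brighter probe had -0.31, -0.04 and -1.04 and was 2.00-fold lower in suppressed aging than in aging, at the limit of the 2-fold call but not past it. The other probe had -2.56 on the young and -3.33 on the suppressed aging array and was not above background on the aging array, where it was at least 3.38-fold lower than in young. Both probes were lower in suppressed aging than in young, by -0.74 and -0.76, and they differed in where they placed aging.

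The constitutive beta subunits, of which Psmb5, Psmb6 and Psmb7 carry the cutting sites, were higher in 4 of 7 genes in aging than in young (median 0.34), in 4 of 7 in suppressed aging than in aging (median 0.03) and in 6 of 7 in suppressed aging than in young (median 0.19). The catalytic subunits did not share a direction. Psmb6, of the caspase-like site, had 5.68, 6.14 and 6.13, and its other probe had 4.65, 5.29 and 5.10. Both probes placed the young array lowest, by 0.46 and 0.64 below aging, and both gave 0.45 in suppressed aging against young. Psmb5, of the chymotrypsin-like site, had 5.87, 5.65 and 5.68 and was highest in young. Psmb7, of the trypsin-like site, had 5.76, 5.57 and 5.93 and was lowest in aging.

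The other constitutive beta subunits, which have no cutting site, were lowest in young, apart from Psmb1. Psmb4 had 7.47, 7.99 and 7.66 and on its other probe 3.01, 3.61 and 3.53. Psmb2 had 5.25, 5.62 and 5.32 and on its other probe 3.74, 4.39 and 3.94. In both genes both probes were highest in aging and lowest in young. Psmb3 had 6.64, 6.98 and 7.51, the largest difference of a constitutive beta subunit in suppressed aging against young (0.87). Psmb1 had 3.20, 3.14 and 3.40.

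The inducible beta subunits went different ways. Psmb10, which takes the place of Psmb7 in the immunoproteasome, had levels of 0.86, 1.58 and 2.78. It was 1.65-fold higher in aging than in young, 2.29-fold higher in suppressed aging than in aging and 3.77-fold higher in suppressed aging than in young, the widest difference among the 50 genes by their brightest probe, and has 1 probe. Of the blood and immune cell markers, 1 probe of Cd3e was also higher in suppressed aging than in young, by 2.47, while its other probe, Cd74 and the brighter probe of Itgam differed by -0.85, -0.55 and -0.09, the probes of Hba-a1 by -0.78 and 0.75, and Ptprc was not above background. The part of such cells in the Psmb10 values was not tested. Psmb9, which takes the place of Psmb6, had 2.84, 2.63 and 2.45 and was lowest in suppressed aging. Psmb8, which takes the place of Psmb5, was above background on the young array alone, with a level of -4.09 close to the detection limit of -4.20, at least 1.17-fold above aging. Psmb11, the beta subunit of the thymus, was above background on the suppressed aging array alone with a level of -3.66, at least 1.58-fold above aging and at least 1.45-fold above young. Psmb8 could not be ranked between young and suppressed aging, since its young level lay below the detection limit of -3.93 on the suppressed aging array. Psmb8 and Psmb11 were close to background.

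Among the activators, Psme1, a subunit of the interferon-inducible 11S cap, had 4.83, 4.21 and 4.26. By the brightest probe of each gene it had the lowest value of this group in aging against young, at -0.62, and it was still 0.58 below young in suppressed aging. Psme2b, a near copy of the partner subunit Psme2, had 1.77, 2.14 and 3.39 on one probe, 2.37-fold higher in suppressed aging than in aging and 3.07-fold higher than in young. Its other probe had 2.26, 2.27 and 2.58, a log2 difference of 0.33 in suppressed aging against young. No probe was listed under an accession of Psme2 itself, so signal of the 2 genes may be shared and the assignment is uncertain. Psme3, the nuclear activator, was nearly the same on all arrays at 8.01, 8.07 and 8.11. Psme4, an activator tied to acetylated histones, had 4.72, 5.17 and 4.92 on one probe and 1.99, 0.89 and 1.64 on the other. The log2 differences of aging against young were 0.45 and -1.10, so the direction for Psme4 was not settled. The inhibitor Psmf1 had -0.97, -1.03 and -0.85, and -1.54, -1.66 and -1.26 on its other probe, both slightly highest in suppressed aging. In this group 3 of 5 genes were higher in aging than in young by their brightest probe (median 0.05), and 2 of 5 when probes were averaged (median -0.09).

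The assembly chaperones bind unfinished rings and are not part of the finished particle. In aging against young 2 of 7 were higher (median -0.14), in suppressed aging against aging 6 of 7 (median 0.20) and in suppressed aging against young 4 of 7 (median 0.06). Psmg1 and Psmg2 form a pair that guides the alpha ring, as do Psmg3 and Psmg4. Psmg4 had levels of 4.44, 3.16 and 4.08, 2.43-fold lower in aging than in young, and in suppressed aging 1.90-fold above aging. Psmg3 had 2.02, 1.41 and 1.74, also lowest in aging. Psmg1 had 3.21, 2.98 and 3.36 and on its other probe 2.57, 2.20 and 2.62, lowest in aging on both. Psmg2 was the opposite, with -0.91, 0.34 and -1.19, 2.38-fold higher in aging than in young and 2.88-fold lower in suppressed aging than in aging, on its only probe.

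The chaperones of the base showed smaller differences, apart from Psmd10. Psmd10, also known as gankyrin, had 1.30, 2.03 and 2.12, higher by 0.73 in aging and by 0.82 in suppressed aging than in young. Psmd5 had 2.56, 2.55 and 2.64, and Psmd9 had 1.92, 1.78 and 1.99. Their differences lay between -0.14 and 0.20. Of the genes of other function, Psmc3ip had -0.75, -0.21 and 0.32 and on its other probe -1.12, -0.61 and -0.36, lowest in young and highest in suppressed aging on both. Its difference in suppressed aging against young was 1.07 on one and 0.76 on the other. Psme3ip1 had 2.99, 3.20 and 3.17.

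**Figure D3:**
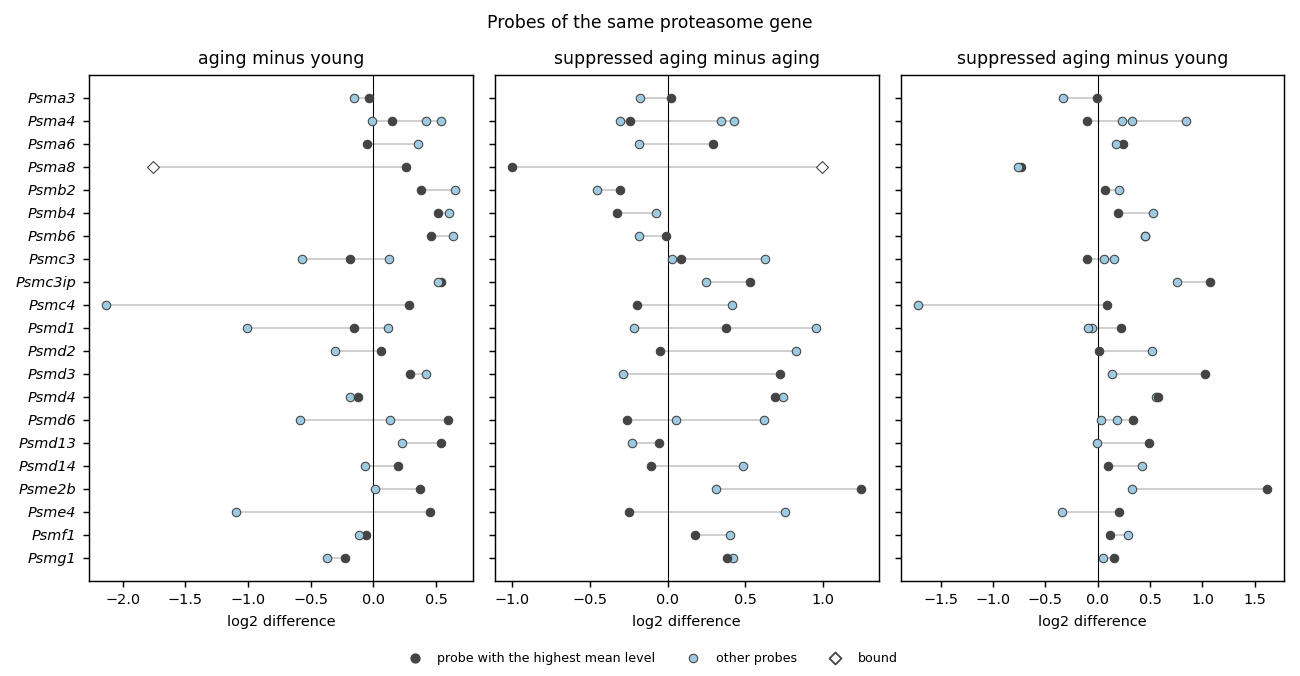
Log2 differences given by the probes of the same gene, for the 21 proteasome genes with 2 or more probes. The dark point is the probe with the highest mean level, light points are the other probes, and diamonds are bounds. Probes of Psmb6, Psmb4 and Psmb2 lie close together, and those of Psmc4, Psme4 and Psmd6 lie on both sides of 0 in aging against young.

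Because the arrays had no replicates, the spread between probes of one gene was the only measure of repeatability for these genes. Counted were genes with 2 or more probes that gave a value. In aging against young all probes had the same direction in 11 of 20 of them (55%). In suppressed aging against aging this was so in 10 of 20 (50%), and in suppressed aging against young in 15 of 21 (71.4%). Over all genes with 2 or more such probes the shares were 50.9%, 49.3% and 50.2%. Over genes of like signal they were 53.8%, 51.9% and 51.8%. The pooled standard deviation between probes of a gene was 0.50, 0.41 and 0.40 on the log2 scale. It was 0.74, 0.73 and 0.70 over all genes and 0.55, 0.52 and 0.54 over genes of like signal. The difference was smaller than this spread for 36 of 49 genes in aging against young, for 38 of 49 in suppressed aging against aging and for 32 of 49 in suppressed aging against young. Replicate spots of the same probe agreed much more closely, with a median standard deviation of 0.05 to 0.06 over 300 probes, none of them a proteasome probe, spotted 10 times on each array. The spread between probes covers neither the differences between embryos nor those between pools.

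Genes around the proteasome were looked at in the same way. Subunits with other symbols were Adrm1, a ubiquitin receptor, and Sem1, a small lid subunit, with the chaperone Pomp, which matures the core. Sem1 had 5.05, 5.63 and 5.39 and Pomp had 5.58, 6.09 and 5.65, both lowest in young. Adrm1 had 3.06, 2.54 and 2.31 on one probe and 2.32, 2.83 and 2.57 on the other, which were opposite in aging against young. Of 18 proteins that bind the proteasome or bring substrates to it, 11 (61.1%) were higher in aging than in young (median 0.13). In suppressed aging 11 (61.1%) were higher than in aging (median 0.09) and 15 (83.3%) were higher than in young (median 0.28). Over all genes the shares were 51.9%, 49.7% and 52.4%, and over genes of like signal 54%, 51% and 58.3%. The ubiquitin ligase Ube3c, with 0.37, 0.42 and 1.61, was more than 2-fold higher in suppressed aging than in both other groups. Of 7 genes for ubiquitin and for activating enzymes of ubiquitin or, in the case of Uba3, of the ubiquitin-like NEDD8, 6 were measured on all arrays and none of these was more than 2-fold apart by its brightest probe. Uba6 was not above background in aging, so only bounds of -0.51 in aging against young and 0.59 in suppressed aging against aging were had.

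Transcription of proteasome subunits is known to be driven by Nfe2l1, which the enzyme Ngly1 helps to activate, and in oxidative stress by Nfe2l2. Nfe2l1 had 2.23, 2.40 and 2.22 on one probe and -0.10, 0.08 and 0.25 on the other. Nfe2l2 had 0.69, 0.82 and 2.24, log2 differences of 1.43 against aging and 1.55 against young in suppressed aging, and its other probe was above background on the suppressed aging array alone. Nfe2l3 had -0.95, -1.15 and -1.01 on one probe and -2.98, -3.42 and -1.90 on the other, which was higher in suppressed aging than in aging by 1.51 and than in young by 1.08. Ngly1 had -1.51, -0.69 and -0.83. The 15 housekeeping genes had medians of 0.02, 0.03 and 0.03. By the brightest probe of each, Gusb alone was more than 2-fold apart, at 1.45, 0.18 and 1.10. The dimmer probe of Tfrc differed by 1.03 in aging against young, and its brighter probe by -0.62. The 9 genes of class I antigen processing looked at share control by interferon with the immunoproteasome. Among them, Irf1 was more than 2-fold apart in every comparison with -3.54, -2.36 and -1.33. This rests on 1 of its 2 probes, the other being not above background, and its young level was close to the detection limit of -4.20. Tap1, Tap2, B2m and H2-K1 were not more than 2-fold apart in any comparison by their brightest probe. The dimmer probe of Tap1 differed by -1.29 in aging against young, and its brighter probe by 0.51.

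Promoter sequence of 42 of the 50 genes was at hand, from 250 bases before to 50 bases after the gene start, from RefSeq on build GRCm38.p6. Psma8, Psmb1, Psmb2, Psmb7, Psmc3, Psmd3, Psmd7 and Psmg2 had no entry. The windows were searched on both strands for the antioxidant response element to which Nfe2l1 and Nfe2l2 bind, as TGACNNNGC, and for the interferon-stimulated response element, as GAAA, then any 2 bases, then GAAA. The antioxidant response element was found in 6 of 42 genes (14.3%), which are Psmb5, Psmb6, Psmc6, Psmd9, Psmd12 and Psme4, and in 13.99% of all genes with a window. The interferon element was found in 5 of 42 (11.9%), which are Psmb3, Psmd4, Psmd9, Psme1 and Psmg4, and in 3.99% of all genes. Only Psmd9 held both, and they did not overlap. The sequences are shown for catalytic subunits and a lid gene with the antioxidant element, and for 4 of the genes with the interferon element, chosen after their levels were seen. They are written 5′ to 3′ on the strand of the gene, and capitals mark the match, which is on the opposite strand in Psmd12, Psmb3, Psmd4 and Psme1.
Psmb5, minus strand, chr14:54618014-54618062: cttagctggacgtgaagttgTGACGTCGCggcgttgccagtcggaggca
Psmb6, plus strand, chr11:70525328-70525376: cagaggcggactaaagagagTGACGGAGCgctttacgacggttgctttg
Psmd12, plus strand, chr11:107479278-107479309: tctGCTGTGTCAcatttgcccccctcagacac
Psmb3, plus strand, chr11:97703251-97703300: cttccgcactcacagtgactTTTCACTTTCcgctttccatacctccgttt
Psmd4, minus strand, chr3:95042665-95042714: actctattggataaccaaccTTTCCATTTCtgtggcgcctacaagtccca
Psme1, plus strand, chr14:55578483-55578523: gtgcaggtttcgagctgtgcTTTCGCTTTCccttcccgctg
Psmg4, plus strand, chr13:34162959-34162993: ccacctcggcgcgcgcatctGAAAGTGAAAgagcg

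A match describes the letters and is not a binding site, and where none was found these letters are only not in this window. Of the 6 genes with the antioxidant element, Psmb6, Psmc6, Psmd12 and Psme4 were lowest in young by their brightest probe, Psmb5 was highest in young and Psmd9 was lowest in aging. Of the 5 genes with the interferon element, Psmb3, Psmd4 and Psmd9 were highest in suppressed aging by their brightest probe, while Psme1 and Psmg4 were highest in young. The inducible subunits Psmb8, Psmb9 and Psmb10 had windows with no match to either.

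**Figure D4:**
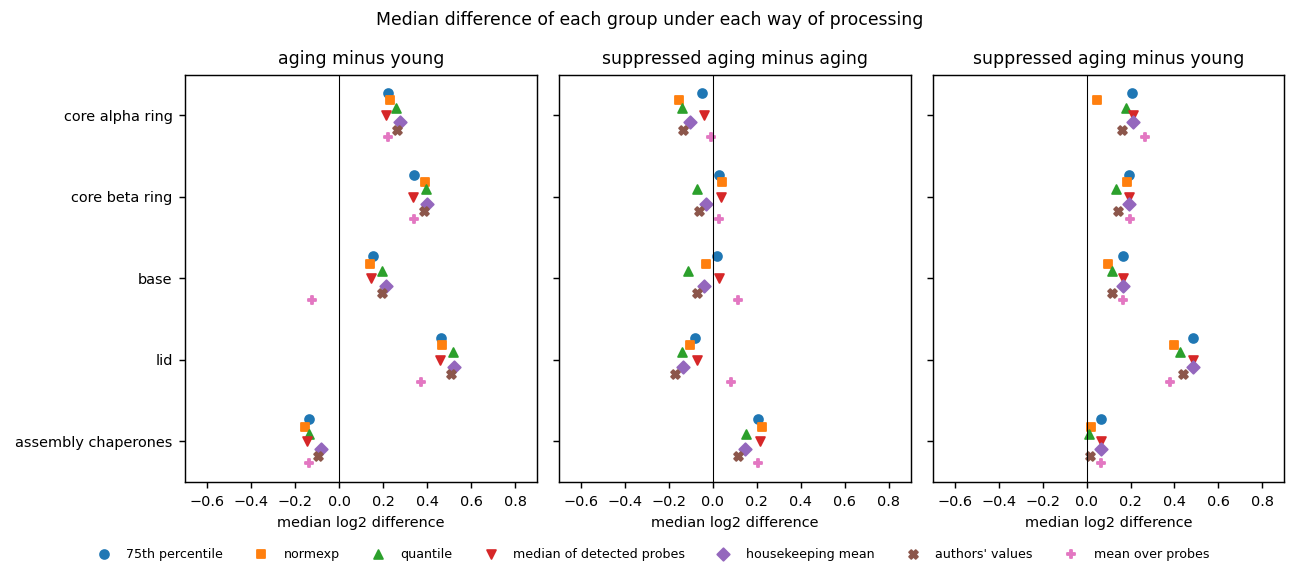
Median log2 difference of 5 groups of proteasome genes under 6 scalings of the arrays and with the probes of each gene averaged. Each symbol is 1 way of processing. The lid medians stay above 0.3 in both comparisons with young, while the medians of suppressed aging against aging lie on both sides of 0 for the core beta ring, the base and the lid.

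The direction for the groups was compared under 6 scalings of the arrays. In aging against young the 31 constitutive subunits had medians between 0.23 and 0.30, with 23 to 25 of them higher, and in suppressed aging against young medians between 0.18 and 0.24, with 26 or 27 higher. Between suppressed aging and aging their medians lay between -0.12 and -0.00, with 10 to 15 higher. When the probes of a gene were averaged, that direction turned: the median was 0.06 and 19 of 31 were higher. All 8 lid genes were higher than in young under each of the 6 scalings in both comparisons, with medians between 0.46 and 0.52 in aging and between 0.40 and 0.49 in suppressed aging. The sign of the median in suppressed aging against aging changed with the scaling for the constitutive beta ring (-0.07 to 0.04), the base (-0.11 to 0.03) and the activators (-0.04 to 0.06), so no direction is given for these groups in that comparison.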

How the data were processed

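The authors deposited, for each of 3 arrays, the linear scanner intensity of each spot, background-subtracted by Agilent Feature Extraction 12.0.3.1 and not normalized between arrays. The authors also deposited a table of processed signal values, which was each array's scanner intensity times 1 constant factor, within 0.1% for every spot listed. For amplification, the labels name a cRNA labelling kit and the paper's methods a global PCR, and which one applies is not known from the files.

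Control spots and spots marked as outliers by the scanner were left out (85 to 118 spots per array, none of a proteasome gene), spots of a probe were averaged as log2 intensities, and the array's 75th percentile (122 to 155 intensity units) was subtracted. Between 56.4% and 58.7% of probes were well above background, and the detection limits were log2 levels of -4.20 (young), -4.32 (aging) and -3.93 (suppressed aging). With 1 array not above background, its detection limit or, where higher, the probe's own signal gave a bound. With both not above background no difference was taken. Of the probes, 33759 were named through their accession. The symbol rule also matched 7 reference genes with no probe under their accession, which were Psme2 and 6 pseudogenes. The probe with the highest mean level stood for a gene, with 2-fold as the threshold.

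The number of arrays limits the precision: with 1 per condition, no replicate was left out and no test was made. The genes and lists were chosen with earlier results of these data known. Levels are given for the catalytic and inducible subunits, activators, inhibitor, genes past 2-fold and genes with 2 or more probes. Some genes of the related lists are not reported here. Alternatives were normexp (limma 3.58.1, offset 50), quantile normalization, centring on probes above background on all arrays or on the mean of 15 housekeeping genes, the authors' values, outlier spots kept, other rules for probes, the background filter, 5-fold, and the lists without some genes. The genes of like signal, the list without Psme2b and the list of constitutive subunits alone were added after seeing the data. The procedure was tested on simulated data. Computations used Python 3.11.15, NumPy 2.4.6, pandas 2.3.3, Matplotlib 3.10.9 and R 4.3.3.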

Additional observations from a re-analysis of the deposited data

How the results depend on the processing

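Of the recomputed values of the share of genes higher, the median and the count past 2-fold in each comparison, 105 moved little and 15 moved. The count past 2-fold, which was 2 in aging against young, 3 in suppressed aging against aging and 4 in suppressed aging against young, became 1, 1 and 2 with normexp background correction and 0, 0 and 0 at 5-fold. It became 6 in aging against young when every probe was counted on its own, 1 in suppressed aging against young when probes were averaged, and 5 in suppressed aging against aging with no filter on background. With the constitutive subunits alone it was 0, 0 and 1. By the brightest probe, Psmg2 fell to 0.82 at the lowest in aging against young, while Psmg4 stayed at -1.22 or beyond. In suppressed aging against aging, Psmb10 fell to 0.86 and Psme2b to 0.96, while Psmg2 stayed at -1.12 or beyond. In suppressed aging against young, Psmd3 fell to 0.74 and Psmc3ip to 0.67, while Psmb10 and Psme2b stayed at 1.53 and 1.33 or above. In suppressed aging against aging, where the median was 0.03, it was -0.066 with quantile normalization and -0.063 with the authors' values, under which 40.8% of genes were higher. With no filter on background the median of all probes shifted to -0.12, 0.17 and 0.06. In aging against young the share of proteasome genes that were higher lay between 59.2% and 73.5% over the alternatives other than the constitutive subunits alone. In suppressed aging against young it lay between 77.3% and 79.6% over the same alternatives. With the constitutive subunits alone it was 74.2% and 87.1%. No paired analysis was possible because a single array was made for each condition, and for the same reason no array could be left out. Signal over background limited Psmb8 and Psmb11 to bounds.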
